A study of Mus musculus with 30 samples.

Results

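Red pulp macrophages and Ly6C-high monocytes of the wild-type mouse spleen were compared gene by gene. The members are all 12 wild-type libraries of these 2 populations, out of 30 libraries in the series, chosen by genotype and cell type in the labels: 6 of red pulp macrophages (labelled WT_RPM) and 6 of monocytes (labelled WT_Mono). Every mouse gave 1 library of each population, so that each macrophage library has a monocyte library from the same animal. The 6 mice were female WT B6 animals aged 9.4 to 15.7, a number the labels give with no unit, and no treatment is named for them. Their collection dates were 13 December for 2 mice, 21 December for 1 and 26 December for 3. Each library was made from 500 sorted cells, whose RNA was amplified as full-length cDNA (SMART-Seq v4) and turned into a library with Nextera XT. Both populations were sorted as live CD45.2+ cells that lacked SiglecF and Ly6G. For the macrophages the gate added high VCAM and F4/80 with low CD31, no Ly6C, and CD11b absent or intermediate, and for the monocytes it added Ly6C, Ccr2 and CD11b. The other libraries come from TLR7.1 mice, a line that overexpresses Tlr7, and 12 of them, of the same 2 populations, are compared at the end. All 30 libraries enter the fit only in alternatives.

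Red pulp macrophages line the open blood spaces of the spleen, where they engulf aged and damaged red blood cells, break heme down with heme oxygenase, and return the iron to the blood through ferroportin. Their development depends on the transcription factor Spi-C, which heme induces by releasing it from the repressor Bach1. Ly6C-high monocytes are the classical, inflammatory monocytes. They leave the bone marrow through Ccr2, are held in reserve in the spleen, and can turn into macrophages or into Ly6C-low patrolling monocytes.

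The monocyte libraries held 1209266 to 1932427 counts (median 1584430) and 12954 to 13494 detected genes, the macrophage libraries 95002 to 1511480 counts (median 544757) and 8959 to 13286 genes. The monocyte library was the deeper one in 6 of 6 mice, by 1.03 times in mouse 24117 and by 2.02 to 13.0 times in the other 5. In the shallowest macrophage library, of mouse 24323, a single count is worth 11.04 CPM (the count scaled to a common library size by TMM), so a value of 0 there says little about a gene of low level, and this library stands apart from the other macrophage libraries on the second principal component (-112.81 against 27.6 to 34.4). The densest gene held 1.52 to 1.56 reads per exonic base in the monocyte libraries, whose maxima were thus nearly equal at unequal depth, and 0.562 to 1.59 in the macrophage libraries. A step that limits reads per base is not given in the sources used here, and its part in the folds of the most abundant genes was not tested.

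The genes of the sort separated the populations in the direction of the labels in all 12 libraries, with Pecam1 as the exception. In what follows 3 values given together are the lowest, the median and the highest of a population's 6 libraries, in normalised CPM, log2 differences are macrophages minus monocytes with their standard error after ±, and for a gene called higher or lower the libraries of the 2 populations do not overlap unless overlap is stated. Vcam1, the adhesion receptor behind the sort, stood at 1848, 3407 and 5022 in the macrophages and at 0, 2.33 and 16.8 in the monocytes. Adgre1, which encodes F4/80, stood at 876, 1010 and 1545 and at 345, 404 and 422. Ccr2, the receptor that draws monocytes out of the marrow, stood at 0, 5.64 and 55.2 in the macrophages and at 1017, 1236 and 1531 in the monocytes, and Ly6c2 at 0, 3.27 and 30.9 and at 382, 475 and 527. Itgam, which encodes CD11b, stood at 0, 4.45 and 24.2 and 296, 330.2 and 380. Pecam1, which encodes CD31, stood at 99.3, 159.9 and 242 in the macrophages and 5.58, 9.38 and 16.1 in the monocytes, higher in the cells that were gated as low for CD31. These genes were part of the gates, and their values are a check and not a finding. Neither population overlapped the other in any of these 6 genes. Ptprc, the CD45 gene that both gates ask for, stood at 1160, 1564 and 1834 and 1519, 1748 and 1915, with overlap. Siglecf and Ly6g, which both gates exclude, had 1 and 0 counts in all macrophage libraries and 12 and 0 in all monocyte libraries, and Ly6c1 had 5 and 35. Spic was in no gate. It stood at 1248, 1583 and 1777 in the macrophages and at 48.4, 106 and 168 in the monocytes, a log2 difference of 3.93 ± 0.24 (adjusted p = 6.15e-09), and the monocytes thus held Spic RNA in every library, at a level every macrophage library exceeded.

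In the test of macrophages against monocytes within mice (edgeR's quasi-likelihood test, Benjamini-Hochberg adjusted p under 0.05), 1961 of 9656 tested genes were higher in the macrophages (20.3%) and 2355 were lower (24.4%), so that 44.7% of the tested genes differed in either direction. For 1225 genes (12.7%) all 6 macrophage libraries lay above all 6 monocyte libraries, and for 1505 (15.6%) all lay below. A difference of at least 4-fold was called for 673 genes higher and 820 lower. With every library thinned to the 95002 counts of the shallowest, 2997 genes could be tested, of which 794 were higher and 812 lower, and within the 3 mice of 26 December 1586 were higher and 1730 lower. The median log2 difference over all tested genes was -0.14. These shares are the background against which each list below is to be read. All values are per library, and in a library of a fixed number of cells fewer cells of a type and less RNA per cell cannot be told apart. The plot of all genes shows both populations' mean levels.

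**Figure D1:**
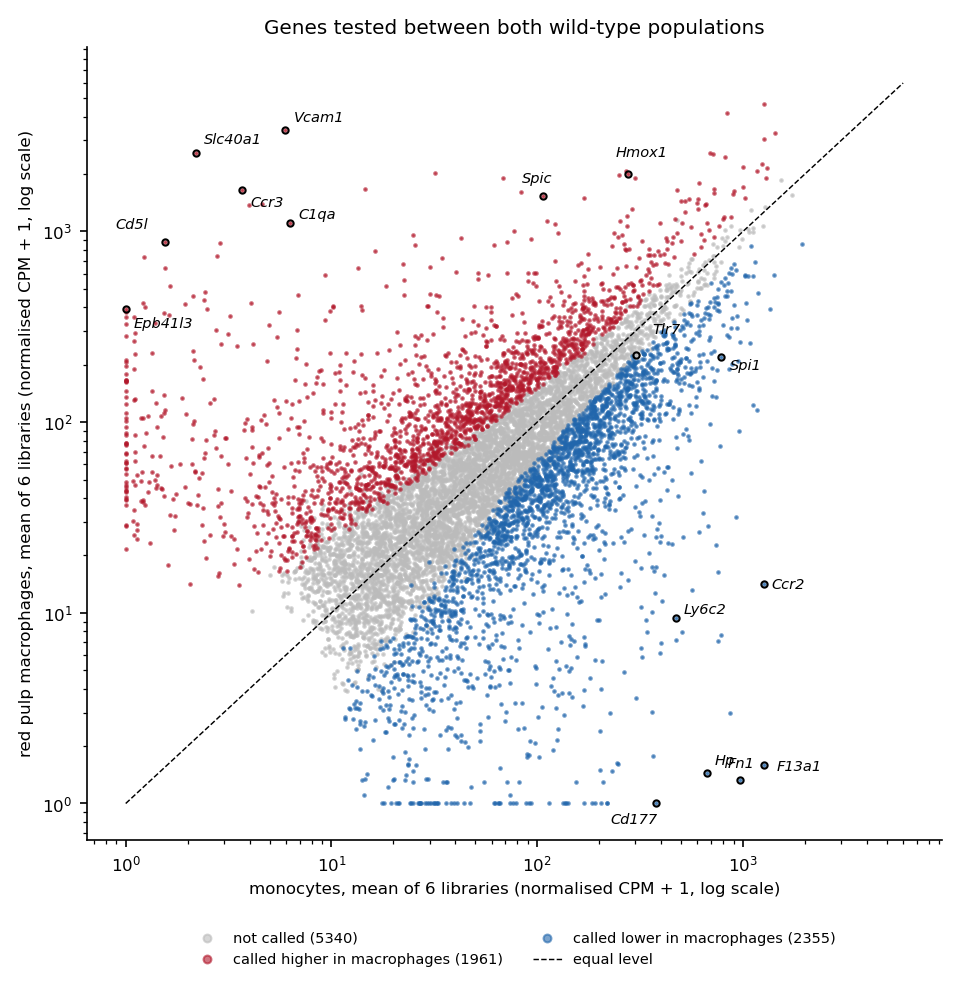
Mean normalised CPM plus 1 of each of the 9656 tested genes in the 6 monocyte libraries (horizontal, log scale) and in the 6 macrophage libraries (vertical, log scale), coloured by call, with the dashed line at equal level. The 1961 genes higher in macrophages lie above the line and the 2355 lower genes below it, and the genes near an axis are all but absent from one population.

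The largest rises were in genes with 0 or few counts in the monocytes. Where a group held 0 counts the fold is a lower bound, set against 3 counts over its 6 libraries, and where it held 1 to 3 counts the ratio of the summed counts is given. Epb41l3, a membrane skeleton protein related to band 4.1, stood at 302, 374 and 485 in the macrophages, at 0 counts in all 6 monocyte libraries and at least 1313-fold higher. Gfra2, the co-receptor for neurturin, was at least 930.1-fold higher (194, 378 and 563), and Slc1a3, a glutamate transporter of the plasma membrane, at least 1082-fold (242, 342 and 486). Slc45a3, a sugar transporter, was at least 821-fold higher. Sema6d, a transmembrane semaphorin, had 1 count in all monocyte libraries and stood at 232, 351 and 524 in the macrophages, 3239-fold (95% counting interval 580.4 to 128100) higher. The remaining genes of the 15 largest rises were Col14a1, Slc40a1, Itgad, Timd4, Ptgis, Plpp3, Cd5l, Vstm4, Slc16a9 and Paqr9, several of which return below with their groups. A glutamate transporter, a neurotrophic co-receptor and a semaphorin among them are genes better known from the nervous system.

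The largest falls mirrored them, with 0 or few counts in the macrophages. Cd177, a surface glycoprotein best known from neutrophils, stood at 335, 384 and 419.7 in the monocytes and at 0 counts in all 6 macrophage libraries, at least 452-fold lower. F13a1, the A chain of coagulation factor XIII, stood at 1158, 1275 and 1440 in the monocytes and had 2 counts in all macrophage libraries, 2278-fold (95% counting interval 630.4 to 18810) lower. Stxbp6, a partner of the syntaxin machinery, was at least 265-fold lower and Galnt9, an enzyme that starts O-linked sugar chains, at least 264-fold lower. Rasgrp4, an activator of Ras in myeloid cells, was at least 221-fold lower, and Padi4, the enzyme that citrullinates histones, at least 133-fold lower. Gapt, Nhsl2, Ltb4r1, Trem2, Ugt1a7c, Slc2a6, Cd300lg, Fn1 and Hp complete the 15 largest falls.

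Of the 23 tested genes of the red pulp macrophage identity list, 21 were higher in the macrophages and 1 was lower, with a median log2 difference of 4.96. The list and the gates share no gene, but it was drawn up with this cell in mind. Slc40a1, which encodes the iron exporter ferroportin, stood at 1690, 2602 and 3422 in the macrophages and at 0, 0.314 and 5.87 in the monocytes, a log2 difference of 11.19 ± 0.47. Itgad, the CD11d integrin chain, stood at 575, 737 and 941 against 2 counts in all monocyte libraries, 3220-fold (95% counting interval 890.5 to 26610) higher. Cd5l, a secreted scavenger protein that LXR induces, varied little between the macrophage libraries, at 830.5, 859 and 971, against 0, 0 and 3.36 in the monocytes (log2 10.63 ± 0.45). Igf1, the insulin-like growth factor, stood at 1012, 1481 and 1754 and at 0.508, 3.48 and 6.71. Epor, the erythropoietin receptor, was 413-fold (95% counting interval 114 to 3427) higher, and Kcnj10, a potassium channel, 1602-fold (95% counting interval 442 to 13240) higher. Id3, an inhibitor of basic helix-loop-helix factors, was the member that was lower, at 0, 0 and 55.6 in the macrophages and 31.7, 51.6 and 69.5 in the monocytes (log2 -2.998 ± 0.82). The macrophage and monocyte libraries overlap in Id3, and 2 of the 6 macrophage libraries held any Id3 count. Trpv4, a calcium channel, did not pass the test, at 0, 12.9 and 27.3 and 0.643, 10.5 and 24.5.

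The classical monocyte list ran the other way, with 22 of 23 tested members lower in the macrophages, 0 higher and a median of -5.94. Fn1, which encodes fibronectin, stood at 816, 899.5 and 1258 in the monocytes and had 3 counts in all macrophage libraries, 1136-fold (95% counting interval 389 to 5511) lower. Hp, haptoglobin, which binds free hemoglobin in plasma, stood at 551, 649 and 806 in the monocytes and was 1172-fold (95% counting interval 324 to 9683) lower in the macrophages. Chil3, the chitinase-like protein Ym1, stood at 520.3, 777 and 1347 and at 0, 1.19 and 5.82, a log2 difference of -8.96 ± 0.38. Mgst1, a microsomal glutathione transferase, was the member not called, at 380.2, 459 and 554 in the monocytes and 224, 358 and 441 in the macrophages, although it is called lower without mouse 24214 (log2 -0.604). The plot of levels by library shows the separation for the markers of both cells.

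**Figure D2:**
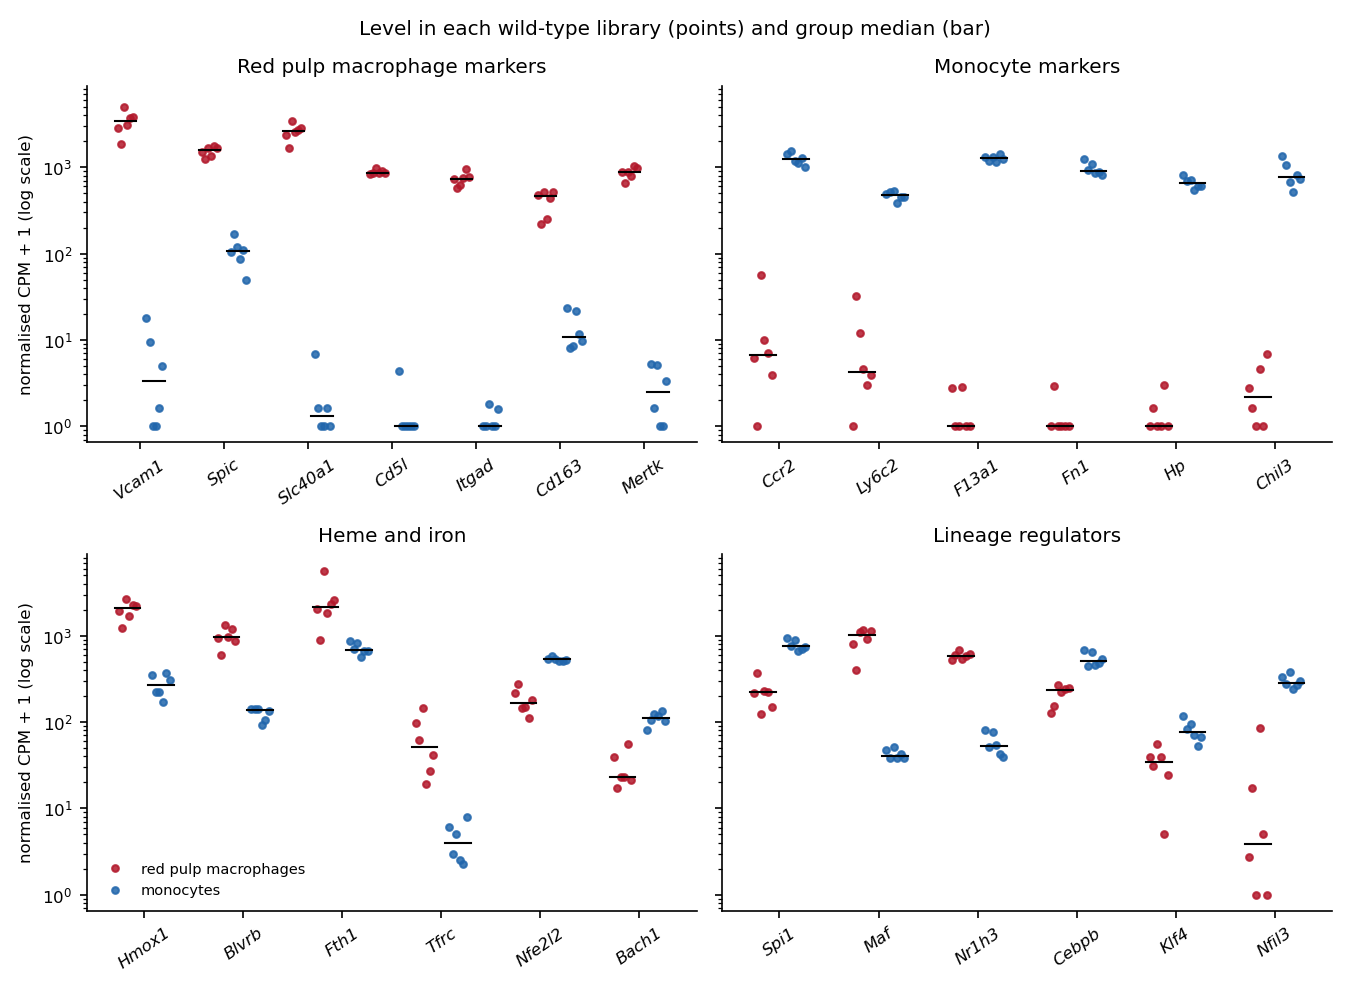
Normalised CPM plus 1 (log scale) in each of the 6 macrophage libraries (red points) and 6 monocyte libraries (blue points), with the group median as a bar, for markers of each cell, heme and iron genes and lineage regulators. Vcam1, Slc40a1, Itgad and Cd5l separate the populations by 2 to 3 orders of magnitude, while Fth1, Spi1 and Cebpb differ by far less.

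Genes that other tissue macrophages share moved in both directions. Of 35 tested genes of the tissue macrophage core, 19 were higher and 8 lower, with a median of 1.08. The count of lower members falls to 4 without mouse 24028 and to 5 without mouse 24323 or without mouse 24415. Mertk, the kinase receptor that takes up dying cells, stood at 647, 883 and 1026 in the macrophages and 0, 1.48 and 4.19 in the monocytes (log2 8.96 ± 0.40). Csf1r, the receptor that both cells need for survival, was higher by less, at 1160, 1491 and 2737 against 931, 1014 and 1060 (log2 0.703 ± 0.15). The Fc receptor genes Fcgr1 and Fcgr3, often used to define macrophages, were not called, with log2 differences of -0.04 ± 0.16 and 0.04 ± 0.14. Agmo, an enzyme that cleaves ether lipids, and the tyrosine kinase gene Fer were higher (log2 4.45 ± 0.68 and 4.97 ± 0.47). Sqor, the mitochondrial sulfide oxidoreductase, and Dok3, an adaptor of inhibitory signalling, went the other way (log2 -1.96 ± 0.31 and -1.65 ± 0.22), and in both no macrophage library reached the lowest monocyte library.

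The genes of Ly6C-low patrolling monocytes split between the populations, 9 of 19 higher and 8 lower, with a median of 0.01. Nr4a1, the nuclear receptor that makes the Ly6C-low cell, stood at 352, 452 and 579 in the monocytes and at 65.1, 121 and 177 in the macrophages (log2 -2.02 ± 0.22). Cx3cr1, the fractalkine receptor, stood at 310, 423 and 464 and 0, 8.91 and 54.5 (log2 -4.96 ± 0.40), and Ceacam1 and Ace were lower too (log2 -6.26 ± 0.61 and -5.29 ± 0.60). In the opposite direction Cd300e, an activating receptor that pairs with DAP12, was higher in the macrophages (log2 5.34 ± 0.53), as were Slc12a2, a sodium, potassium and chloride cotransporter (log2 4.497 ± 0.21), and Fabp4, a fatty acid binding protein (log2 3.96 ± 0.48).

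Transcription factors of the myeloid lineage were more often lower than higher in the macrophages, 22 against 14 of 42 tested (median -0.87). Among the higher ones were factors known from macrophages. Maf, a basic leucine zipper factor that restrains macrophage growth, stood at 404, 1011 and 1164 in the macrophages and at 36.9, 39.4 and 50.95 in the monocytes (log2 4.396 ± 0.22). Nr1h3, the oxysterol receptor LXR-alpha, stood at 516, 589 and 684 and 38.1, 52.05 and 79.7 (log2 3.42 ± 0.20). Its partner Rxra rose with it (log2 3.04 ± 0.25), and Pparg, a lipid-sensing receptor of the same class, was higher with overlapping libraries, at 66.2, 201 and 426 and 24.4, 42.8 and 67.9. Etv5, an ETS factor, had the largest rise (log2 7.42 ± 0.60).

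Among the factors that were lower, Spi1, which encodes PU.1, the master regulator of both cells, stood at 659, 755 and 934 in the monocytes and at 121, 219.8 and 369 in the macrophages, a log2 difference of -1.85 ± 0.21 (adjusted p = 4.22e-06). Cebpb, a C/EBP factor that monocytes depend on, stood at 451, 512 and 686 and 127, 231 and 265 (log2 -1.401 ± 0.20). Irf5, a factor of the inflammatory response, was lower (log2 -1.399 ± 0.17), and Klf4, which monocyte development needs, was lower with overlapping libraries (log2 -1.51 ± 0.36). Nfil3, a basic leucine zipper factor, had the largest fall (log2 -4.39 ± 0.62), at 238, 284 and 376 in the monocytes. Irf8, which mononuclear phagocytes need to form, was not called (log2 0.17 ± 0.15). PU.1 and Spi-C are related ETS proteins that read the same purine-rich element, and their genes lay on opposite sides, Spic higher and Spi1 lower in the macrophages.

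That element was looked for in the RefSeq promoter windows of build GRCm38.p6, 250 bases before to 50 after each annotated start, as the letters GAGGAAGT on either strand. It stood in 3.69% of all 27025 genes with a window and in 4.21% of the 7293 tested ones. Among genes higher in the macrophages it stood in 4.11% of the 1459 with a window. For the 1779 lower ones the share was 5.56%, and for the tested genes not called 3.65%. The share was thus highest among the lower genes, and the difference was not tested. The element is shown for genes on both sides of the comparison, with 50 bases on each side as far as the start. The genes shown are examples, and their numbers on each side do not follow these shares. The capitals mark the element or its reverse complement ACTTCCTC, and every sequence reads 5′ to 3′ on the gene's strand. Ptgs1 (cyclooxygenase 1), Hpgds (the hematopoietic prostaglandin D synthase), C1qc (a chain of C1q) and Fcgr4 (an activating receptor for IgG) were higher in the macrophages. Ly6c2 (a gene of the sort) and Gapt (a transmembrane adaptor) were lower.
Ptgs1, chr2:36230352-36230425, plus strand, element 24 to 17 bases before the start: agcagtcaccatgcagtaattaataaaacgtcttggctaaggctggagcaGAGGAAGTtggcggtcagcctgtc
Hpgds, chr6:65144731-65144829, minus strand, element 49 to 42 bases before the start: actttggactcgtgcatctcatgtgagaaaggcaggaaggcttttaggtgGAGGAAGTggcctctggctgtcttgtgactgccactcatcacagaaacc
C1qc, chr4:136893052-136893159, minus strand, reverse complement 195 to 188 bases before the start: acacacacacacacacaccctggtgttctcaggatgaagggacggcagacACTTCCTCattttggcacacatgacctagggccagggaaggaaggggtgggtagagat
Fcgr4, chr1:171018852-171018925, plus strand, reverse complement 24 to 17 bases before the start: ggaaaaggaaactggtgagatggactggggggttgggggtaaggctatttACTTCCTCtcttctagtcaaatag
Ly6c2, chr15:75112022-75112129, minus strand, element 108 to 101 bases before the start: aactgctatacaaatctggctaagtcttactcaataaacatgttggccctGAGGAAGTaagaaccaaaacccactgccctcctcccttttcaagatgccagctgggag
Gapt, chr13:110357227-110357334, minus strand, reverse complement 112 to 105 bases before the start: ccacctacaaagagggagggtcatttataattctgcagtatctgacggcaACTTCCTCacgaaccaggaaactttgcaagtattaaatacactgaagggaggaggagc
The windows of Spic, Cd5l, Timd4, Axl and Ccr2 do not hold these letters. A match describes the sequence only, and binding was not measured in these data.

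Heme uptake and breakdown was the group nearest to the known task of the red pulp. Of 13 tested members 8 were higher and 3 lower, with a median of 1.21. Cd163, the receptor for hemoglobin bound to haptoglobin, stood at 220.3, 462 and 519 in the macrophages and at 7.07, 9.67 and 22.6 in the monocytes (log2 4.96 ± 0.31). Slc48a1, the transporter HRG1 that moves heme out of the phagolysosome, stood at 508, 611 and 762 and 132, 185 and 206 (log2 1.85 ± 0.15). Hmox1, the heme oxygenase that opens the ring and frees the iron, stood at 1231, 2075 and 2682 and 171, 266 and 371, a 7.33-fold difference (log2 2.88 ± 0.18, adjusted p = 9.45e-09). Both biliverdin reductases, which make bilirubin from the opened ring, were higher, Blvrb at 602, 954 and 1325 against 91.9, 137 and 142 and Blvra by less (log2 1.32 ± 0.17). Slco2b1, an organic anion transporter, was 2333-fold (95% counting interval 418 to 92260) higher. In each of these 6 genes every macrophage library lay above every monocyte library. Flvcr1, a heme exporter, was not called (log2 -0.54 ± 0.29). The regulators of Hmox1 were both lower: Bach1, the repressor that heme destroys, stood at 80.5, 110 and 134 in the monocytes and 16.1, 21.9 and 54.5 in the macrophages (log2 -1.98 ± 0.33), and Nfe2l2, the activator Nrf2, at 504, 532 and 579 and 109, 164 and 278 (log2 -1.61 ± 0.18).

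Iron handling followed the same direction, 11 of 16 tested members higher and 1 lower (median 0.92). Ferroportin, given above, is the largest member. Fth1, the heavy chain of ferritin, stood at 889.8, 2178 and 5663 in the macrophages and 568, 681 and 858 in the monocytes (log2 1.64 ± 0.23), and the light chain Ftl1 stood at 145, 199.6 and 419.5 and 88.8, 108 and 125. Trf, transferrin, stood at 123, 346 and 861 and 40.6, 46.4 and 59.99, and its receptor Tfrc at 18.2, 50.6 and 144 and 1.26, 3.02 and 6.92 (log2 4.06 ± 0.52). Ncoa4, which carries ferritin to its breakdown, and Hfe, the hemochromatosis protein, were higher as well (log2 1.89 ± 0.46 and 0.82 ± 0.18). The transporter Slc39a8 was higher on few counts (log2 4.48 ± 0.89). Mcoln1, the lysosomal iron and calcium channel, was the member that was lower, with overlap (log2 -1.14 ± 0.34). Slc11a2, the endosomal transporter DMT1, was not called (log2 0.35 ± 0.36). Hamp, which encodes hepcidin, had no count in any of the 12 libraries.

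Nrf2 and Bach1 read the same element, the antioxidant or MARE sequence TGACTCAGC. It stood in the windows of 0.503% of all genes with a window and of 0.439% of the tested ones. The shares were 0.617% of the higher genes (9 of 1459) and 0.393% of the lower genes (7 of 1779). Hmox1 and Slc40a1 have no window in the set used, so they were not searched. Met, the receptor for hepatocyte growth factor, was lower in the macrophages and held the element. Among the iron and redox genes it was found in the windows of Prdx1, the cytosolic peroxiredoxin, and Hfe, which are shown with the element or its reverse complement GCTGAGTCA in capitals. Both genes were higher in the macrophages, at 474, 839.9 and 1314 against 281, 318 and 390.1 for Prdx1 and at 353, 481 and 542 against 183, 270.5 and 298 for Hfe.
Prdx1, chr4:116685416-116685524, plus strand, reverse complement 133 to 125 bases before the start: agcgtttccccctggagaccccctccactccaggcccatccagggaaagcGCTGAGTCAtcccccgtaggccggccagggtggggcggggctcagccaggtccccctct
Hfe, chr13:23710863-23710971, minus strand, element 67 to 59 bases before the start: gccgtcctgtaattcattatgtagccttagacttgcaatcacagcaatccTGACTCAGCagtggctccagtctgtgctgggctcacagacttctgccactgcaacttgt

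Genes for the uptake of dying cells were mixed, 8 of 23 tested higher and 10 lower (median -0.51). Among the higher ones were receptors for phosphatidylserine or its bridging proteins. Timd4, the receptor Tim-4, stood at 88.3, 218 and 275 in the macrophages against 0 counts in the monocytes, at least 678-fold higher. Stab2, the endocytic receptor stabilin-2, stood at 324, 422 and 519, 1857-fold (95% counting interval 513 to 15350) higher, and Axl, a kinase related to Mertk, at 1069, 1580 and 2152 against 42.8, 90.9 and 103 (log2 4.29 ± 0.21). Tgm2, a transglutaminase that helps engulfment, was higher (log2 4.98 ± 0.26). Gas6, the ligand of Axl and Mertk, was too low for the test, with 104 counts in the macrophages and 0 in the monocytes, at least 88.99-fold higher. Among the lower ones were secreted molecules: Pros1, protein S (log2 -4.72 ± 0.57), Mfge8, a bridge to integrins (log2 -3.400 ± 0.90), Anxa1, annexin A1 (log2 -5.797 ± 0.68), and Thbs1, thrombospondin 1, 435-fold (95% counting interval 120.4 to 3597) lower. Cd300lb, a paired receptor, was lower as well (log2 -3.16 ± 0.25), and so were the engulfment proteins Dock2 and Rac2 (log2 -1.17 ± 0.20 and -0.85 ± 0.17).

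Scavenger receptors differed in both directions too, but were more often higher, 7 of 15 against 3 lower (median 0.15). Mrc1, the mannose receptor, stood at 1361, 2088 and 2568 in the macrophages and 21.99, 28.1 and 45.7 in the monocytes (log2 6.04 ± 0.23). Marco, a class A receptor that marginal zone macrophages are known for, spread widely in the macrophage libraries, at 20.6, 94.5 and 309, against 1 count in all monocyte libraries (737-fold (95% counting interval 131 to 29200)). Its relative Msr1, also of class A, was lower, at 382, 490 and 537 in the monocytes and 52.1, 65.9 and 109.5 in the macrophages (log2 -2.75 ± 0.21). Scarb1, the receptor for high-density lipoprotein, was lower (log2 -1.12 ± 0.21). Cd68, the common macrophage marker, had a log2 difference of 0.15 ± 0.14 that did not pass the test.

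Of 10 tested Fc receptor genes 4 were higher and 2 lower. Fcgr4, an activating receptor for IgG, stood at 486, 520.1 and 668 in the macrophages and 65.3, 105 and 179.9 in the monocytes (log2 2.23 ± 0.20). Fcgr2b, the inhibitory receptor for IgG, stood at 0, 23.8 and 75.4 and 539.6, 603 and 753 (log2 -4.38 ± 0.49). An activating and the inhibitory receptor for IgG thus lay on opposite sides, while Fcgr1 and Fcgr3, given above, were not called. Fcgrt, the neonatal receptor that recycles IgG, was higher (log2 1.86 ± 0.16), and so was Fcrl1, an Fc receptor-like gene of B cells (log2 2.38 ± 0.37). Fcer1g, the signalling chain that the activating receptors share, was higher with overlapping libraries (log2 1.399 ± 0.23). Trim21, the cytosolic antibody receptor, was lower (log2 -1.72 ± 0.34).

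C-type lectins and Siglecs, receptors for sugars, were higher in 10 and lower in 8 of 22 tested (median 0.62). Clec1b, the receptor CLEC-2, stood at 188, 390.1 and 432 in the macrophages and 0, 2.49 and 4.61 in the monocytes (log2 7.25 ± 0.37). Clec4n, the fungal receptor dectin-2, was higher too, at 742, 1093 and 1351 against 76.1, 107 and 187 (log2 3.22 ± 0.24). Clec7a, dectin-1, was lower (log2 -2.03 ± 0.23), and so was Clec4e, the receptor Mincle (log2 -5.94 ± 0.58). Clec5a was 543-fold (95% counting interval 97.3 to 21460) lower, and Cd209a, a relative of DC-SIGN, stood at 264, 359 and 439 in the monocytes and 0, 0 and 12.1 in the macrophages (log2 -7.55 ± 0.54). The inhibitory Siglece was higher (log2 2.19 ± 0.23).

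Brakes on engulfment and other paired receptors were higher in 15 and lower in 7 of 26 tested (median 0.72). Sirpa, the receptor for the signal CD47, stood at 839.5, 1384 and 2340 in the macrophages and 450.2, 526 and 582 in the monocytes (log2 1.41 ± 0.16), whereas Cd47 itself was not called (log2 -0.15 ± 0.17). Lair1, a collagen receptor, was higher (log2 1.72 ± 0.16), and so were, with overlap, Cd200r1 and Cd200r4 of the Cd200 receptor family (log2 2.51 ± 0.38 and 3.14 ± 0.59). Trem2, a lipid receptor of many tissue macrophages, had no count in any macrophage library and stood at 109, 137 and 201 in the monocytes, at least 166-fold lower. Trem1, an amplifier of inflammation, was at least 19.5-fold lower, and Sirpb1c lower as well (log2 -3.56 ± 0.43). Tyrobp, the adaptor DAP12 through which Trem and Cd300 receptors signal, was higher with overlapping libraries (log2 1.11 ± 0.23), and Ptpn6, the phosphatase SHP-1 that the brakes recruit, was lower (log2 -0.67 ± 0.16).

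Lysosomal genes were higher in 27 and lower in 10 of 55 tested, with a median of 0.34. Ctsd, cathepsin D, stood at 917, 1129 and 1689 in the macrophages and 201, 282 and 323 in the monocytes (log2 2.14 ± 0.16), and Ctsb, cathepsin B, at 2147, 3186 and 4504 and 1187, 1384 and 1708 (log2 1.16 ± 0.15). Acp5, the tartrate-resistant acid phosphatase, and Acp2, the lysosomal one, were higher (log2 2.69 ± 0.18 and 2.78 ± 0.18). Dnase2a, which digests the DNA of nuclei expelled by red cell precursors, was higher too (log2 2.13 ± 0.25). Igf2r, the sorting receptor for lysosomal enzymes, was 127-fold (95% counting interval 34.3 to 1064) higher, and Ctsf, Cd63 and Tpcn2 had log2 differences of 4.02 ± 0.77, 3.75 ± 0.66 and 3.44 ± 0.51. Gla, alpha-galactosidase, was lower (log2 -3.42 ± 0.77). Lamp2, a structural membrane protein of the lysosome, was lower (log2 -0.88 ± 0.15). The vacuolar proton pump that acidifies the compartment had 5 of 16 tested subunits higher and 2 lower, from Atp6v1f (log2 1.16 ± 0.18) and Atp6v0a1 (log2 1.15 ± 0.34) on the higher side to Atp6v1b2 (log2 -1.36 ± 0.17) on the lower. Atp6v0e was higher with overlap (log2 0.84 ± 0.17).

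Cholesterol efflux genes and LXR targets were higher in 12 and lower in 7 of 23 tested (median 1.09). Abca1 and Abcg1, the pumps that pass cholesterol to lipoproteins, stood at 132, 212 and 311 and 161, 310.3 and 333 in the macrophages and at 0, 2.41 and 10.1 and 15.4, 23.4 and 40.1 in the monocytes (log2 5.899 ± 0.50 and 3.48 ± 0.23). Abcc3, a pump of conjugated anions, rose most after Cd5l (log2 7.08 ± 0.39), and Apoe, apolipoprotein E, was higher with overlapping libraries (1138, 2310 and 2936 against 763, 912 and 1400). Abca7, which moves phospholipid, was the largest fall (log2 -3.23 ± 0.36). Of 18 tested genes of cholesterol synthesis and uptake 0 were higher and 10 lower (median -1.32). Mvd, Fdft1, Fdps and Acat2, enzymes of the mevalonate and squalene steps, were the largest falls (log2 -2.49 ± 0.41, -2.21 ± 0.49, -1.92 ± 0.47 and -1.89 ± 0.55).

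Genes of eicosanoids, lipid mediators made from arachidonic acid, were mixed, 10 of 20 higher and 6 lower (median 0.59). Among the higher ones were genes of the prostanoid branch. Ptgs1 stood at 372, 584 and 817 in the macrophages and 0.508, 7.24 and 16.1 in the monocytes (log2 6.31 ± 0.45), Hpgds at 380.5, 462 and 608 and 0, 0.508 and 3.86 (log2 8.29 ± 0.41). Ptgis, which makes prostacyclin, stood at 143, 206 and 293 against 0 counts, at least 583-fold higher, Pla2g2d, a secreted phospholipase, was higher (log2 8.197 ± 0.57), and Tbxas1, the thromboxane synthase, was higher by 1.63 ± 0.22 on the log2 scale. Hpgd, which inactivates prostaglandins, was higher as well, at 980, 1258 and 1523 against 405, 507 and 692. Among the lower ones were genes of the leukotriene branch. Ltb4r1, the leukotriene B4 receptor, stood at 134, 166 and 201 in the monocytes and had no count in the macrophages, at least 199-fold lower. Cysltr1, the receptor for cysteinyl leukotrienes, and Alox5ap, the helper of 5-lipoxygenase, were lower (log2 -6.53 ± 0.67 and -1.68 ± 0.19). Alox5 itself was too low for the test, with 227 counts in the monocytes and 0 in the macrophages, at least 29.5-fold lower. The inducible cyclooxygenase Ptgs2 was lower with overlap, at 20.8, 31.2 and 87.3 in the monocytes and 0, 0.909 and 29.6 in the macrophages (log2 -3.42 ± 0.72), the opposite of Ptgs1. Ptges, the inducible prostaglandin E synthase, was too low for the test, with 3 counts in the macrophages and 54 in the monocytes, 7.01-fold (95% counting interval 2.27 to 35.1) lower. Members of the prostanoid branch thus lay on both sides.

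Complement components were among the most one-sided groups, 8 of 10 tested higher and 2 lower (median 5.58). The 3 chains of C1q, which starts the classical pathway on antibodies and dying cells, stood at 789, 1007 and 1515 for C1qa, 1081, 1947 and 2495 for C1qb and 994, 1716 and 2119 for C1qc in the macrophages. In the monocytes their medians were 4.47, 72.1 and 9.85, and the log2 differences were 7.73 ± 0.33, 4.93 ± 0.33 and 7.06 ± 0.46. Fcna, a ficolin that starts the lectin pathway, stood at 647, 1240 and 2373 and 0.508, 2.43 and 6.71 (log2 8.83 ± 0.36), C6 of the membrane attack complex at 373, 496 and 749 and 0, 0 and 3.86 (log2 9.41 ± 0.49), and Cfp, properdin, at 809.9, 1140 and 1490 and 217, 255 and 272 (log2 2.15 ± 0.16). C3, the central component, was lower (log2 -1.69 ± 0.22). Of 9 tested receptors and regulators 3 were higher and 4 lower. Cd93 and C5ar1, the receptor for C5a, were lower (log2 -5.296 ± 0.46 and -4.43 ± 0.67), and Cd55, which dissolves the C3 convertase, was higher (log2 3.53 ± 0.50). Vsig4, the receptor for C3b of many resident macrophages, was too low for the test, at 6.95, 12.4 and 43.6 in the macrophages and 0 counts in the monocytes.

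Receptors that steer cells out of and through tissue, the gate's Ccr2 included, were lower more often than higher, 10 of 17 tested against 4 higher (median -1.54). Besides Ccr2 and Cx3cr1, Ccr1 was 238-fold (95% counting interval 42.6 to 9432) lower, and Gpr183, the oxysterol receptor EBI2, was lower (log2 -4.18 ± 0.47). Against these stood Ccr3, the eotaxin receptor known from eosinophils, at 1070, 1660 and 2241 in the macrophages and 0, 1.81 and 7.72 in the monocytes (log2 9.27 ± 0.46, adjusted p = 1.44e-09). Its ligand Ccl24 was higher in the same libraries, with a wide spread (72.7, 271 and 1148 against 0, 4.59 and 9.23, log2 5.93 ± 0.48). Fpr1, the formyl peptide receptor, was higher (log2 5.63 ± 0.29). Of 11 tested ligands 2 were higher and 4 lower. Ccl9 stood at 679.9, 761 and 815 in the monocytes and 0, 1.45 and 23.8 in the macrophages (log2 -6.57 ± 0.46), and Ccl6 was lower by less (log2 -1.36 ± 0.23). Ccl3 and Ccl2, which draw in monocytes, were lower with overlap (log2 -3.61 ± 0.94 and -2.96 ± 0.95), and Ccl2 is not called without mouse 24028, 24117 or 24323 (log2 -2.35, -2.36 and -2.79).

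Cytokines and growth factors were higher in 12 and lower in 8 of 28 tested (median 0.18), and 5 in place of 8 were lower without mouse 24323 or without mouse 24416. Among the higher ones were growth factors and the interleukin-18 pair. Pdgfc was at least 114-fold and Pdgfa 213-fold (95% counting interval 37.2 to 8515) higher, both platelet-derived growth factors, and Fgf1 and Vegfb followed (log2 6.702 ± 0.73 and 5.39 ± 0.59). Il18 stood at 385, 621 and 757 in the macrophages and 66.6, 92.8 and 125 in the monocytes (log2 2.63 ± 0.21), and Il18bp, the protein that neutralises it, at 132, 295 and 481 and 8.39, 12.4 and 124 (log2 3.93 ± 0.38). Il1a was higher (log2 5.23 ± 0.74) and Il1rn, the receptor antagonist of both interleukin-1 forms, was lower (log2 -3.97 ± 0.67), while Il1b was not called (log2 -0.32 ± 0.25). Tnfsf13b, the B cell survival factor BAFF, had no count in the macrophages and stood at 23.8, 46 and 51.5 in the monocytes, at least 52.5-fold lower. Osm, oncostatin M, was lower (log2 -5.68 ± 0.65).

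Their receptors were more often lower, 18 of 36 against 8 higher (median -0.62). Both chains of the interferon-gamma receptor, Ifngr1 and Ifngr2, were lower (log2 -0.81 ± 0.16 and -1.31 ± 0.19), as were both tumour necrosis factor receptors, Tnfrsf1a and Tnfrsf1b (log2 -0.94 ± 0.19 and -1.62 ± 0.16). Met, the receptor for hepatocyte growth factor, Flt1, a receptor for VEGF, and Csf2ra, the receptor chain for GM-CSF, followed (log2 -5.31 ± 0.70, -4.56 ± 0.80 and -1.57 ± 0.18). The transforming growth factor receptors Tgfbr1 and Tgfbr2 were higher (log2 0.84 ± 0.20 and 1.95 ± 0.20), and so was Tnfrsf11a, the receptor RANK (log2 1.95 ± 0.42).

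Integrin chains, the gate's Itgam included, differed in both directions, 4 of 14 higher and 7 lower (median -1.06). Itga9, a chain that can bind Vcam1, stood at 233, 380.3 and 602 in the macrophages and 0, 1.14 and 4.93 in the monocytes (log2 8.13 ± 0.46), and Itgax, the CD11c chain, was higher (log2 2.42 ± 0.39). Lower were Itgal, of LFA-1 (log2 -3.47 ± 0.29), Itga4, of VLA-4 (log2 -2.03 ± 0.18), its partner Itgb7 (log2 -3.87 ± 0.40) and Itga5, the fibronectin receptor chain (log2 -5.01 ± 0.56). Itga4 pairs into the receptor for Vcam1, and its RNA was lower in the macrophages, which were gated for high VCAM. Other adhesion molecules, with Vcam1 and Pecam1 of the gates among them, were higher in 13 and lower in 12 of 32. Cadm1 stood at 563, 762 and 879 and 0, 0.636 and 5.87 (log2 8.72 ± 0.43), the tetraspanin Cd81 at 744, 989.6 and 1178 and 16.7, 25.5 and 30.2 (log2 5.34 ± 0.19), and Sdc4 and Sdc3, cell-surface proteoglycans, were higher (log2 5.38 ± 0.63 and 3.24 ± 0.19). Emb, embigin, was the largest fall, at 725, 783 and 838 in the monocytes and 0, 3.87 and 17.4 in the macrophages (log2 -6.63 ± 0.39), and Selplg, the ligand of selectins, was lower (log2 -1.59 ± 0.18).

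Matrix, coagulation and protease genes were lower in 14 and higher in 6 of 26 tested (median -2.98). Among the lower genes, beside Fn1, F13a1 and Thbs1, F10, coagulation factor X, was 740.2-fold (95% counting interval 133 to 29250) lower, F5, factor V, 125-fold (95% counting interval 22.3 to 4954) lower, and Vcan, versican, 155-fold (95% counting interval 42.8 to 1282) lower. Mmp8, a collagenase, was 659.7-fold (95% counting interval 182 to 5450) lower. Among the higher ones, Col14a1, a collagen that binds fibrils, stood at 132, 266 and 422 against 0 counts, at least 823-fold higher. Pcolce2, which helps mature collagen, was at least 493-fold higher, and Adamdec1, a secreted protease, stood at 474, 668 and 741 and 0, 0 and 3.36 (log2 10.18 ± 0.45). Timp2, an inhibitor of metalloproteases, was higher (log2 2.44 ± 0.18).

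**Figure D3:**
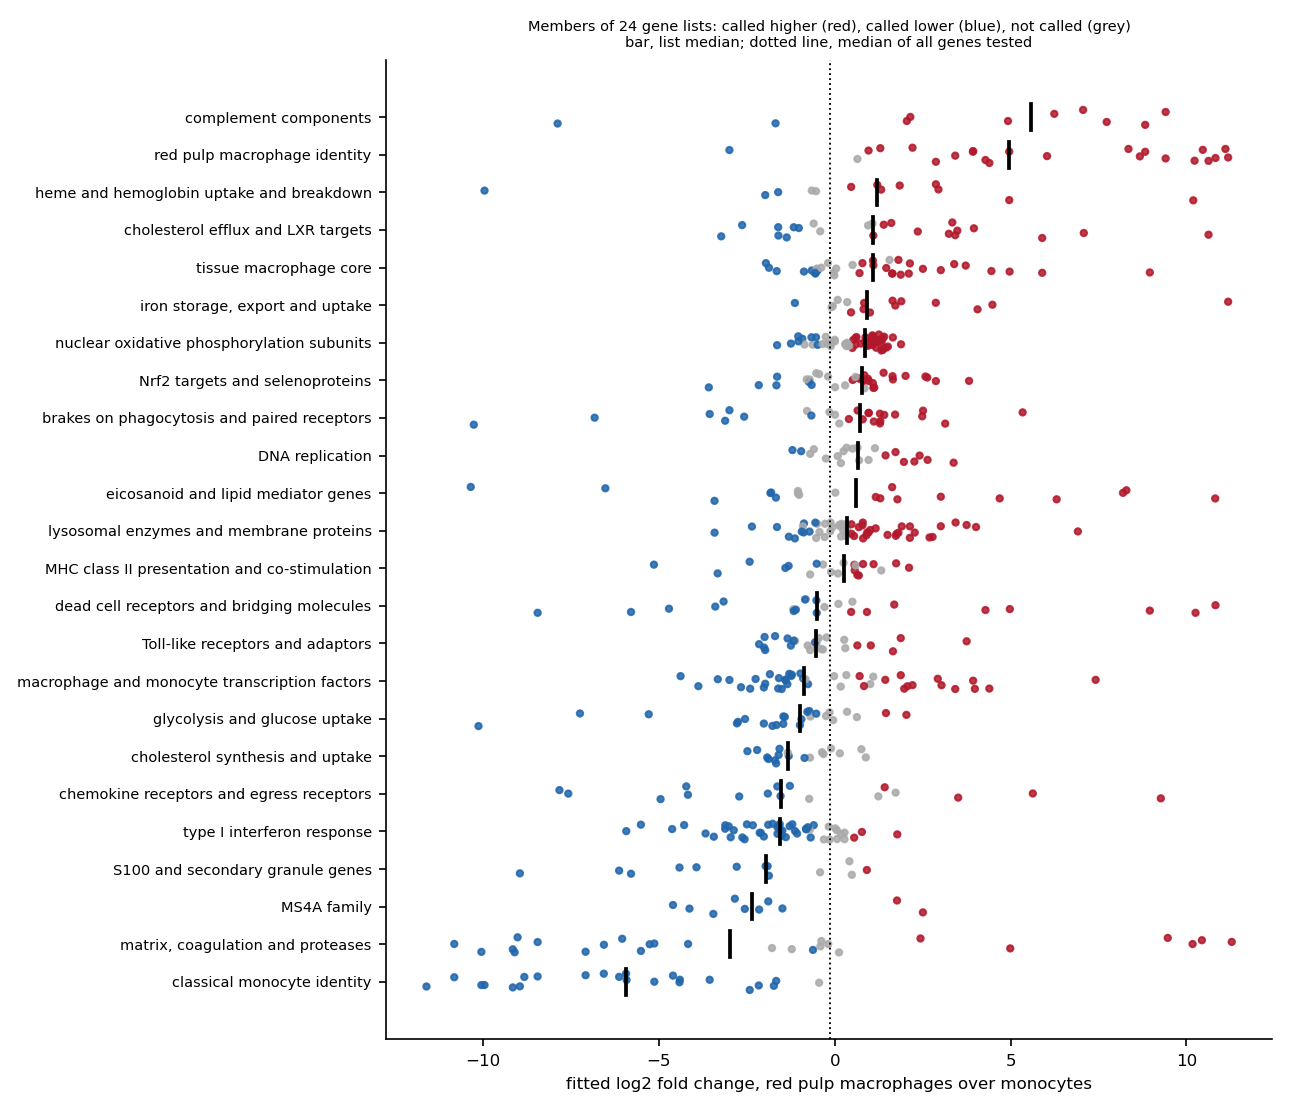
Log2 difference (macrophages minus monocytes) of the tested members of 24 gene lists, 1 point per gene, with the list median as a bar and the dotted line at the median of all 9656 tested genes, -0.14. The red pulp identity and complement lists lie furthest to the right and the classical monocyte list furthest to the left, while most other lists straddle the line with members on both sides.

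Toll-like receptors and adaptors were lower in 10 and higher in 5 of 26 tested (median -0.54). Tlr4, the receptor for lipopolysaccharide, stood at 140, 179 and 221 in the macrophages and 31.1, 47.5 and 72.7 in the monocytes (log2 1.88 ± 0.26), and its partner Ly96, MD-2, rose with it (log2 1.65 ± 0.21). Tlr3, the receptor for double-stranded RNA, was higher (log2 3.75 ± 0.64). Myd88, the adaptor that most Toll-like receptors share, stood at 349.7, 379 and 466 in the monocytes and 75.6, 104 and 121 in the macrophages (log2 -2.01 ± 0.17), and Tirap, its bridge to Tlr4, was lower too (log2 -2.15 ± 0.50). Tlr13, which reads bacterial ribosomal RNA, was lower (log2 -1.998 ± 0.22), and so was Unc93b1, the chaperone of the endosomal receptors (log2 -0.56 ± 0.14). Tlr7, the receptor that the other genotype of the series overexpresses, was not called, at 110.4, 204 and 389.7 and 211, 299.7 and 359 (log2 -0.51 ± 0.21, adjusted p = 0.0542), but is called lower without mouse 24214 (log2 -0.66) or 24416 (log2 -0.69). Of 26 tested genes of cytosolic sensing 3 were higher and 9 lower. Tmem173, which encodes STING, stood at 232, 288 and 459.8 in the monocytes and 24.2, 48.7 and 99.2 in the macrophages (log2 -2.64 ± 0.24). Gsdmd, the pore of pyroptosis, and Mefv, pyrin, were lower (log2 -2.08 ± 0.32 and -4.34 ± 0.70), and Card9, the adaptor below dectin-1, was at least 36.4-fold lower. Nlrp3 and Pycard were not called (log2 -0.23 ± 0.49 and 0.205 ± 0.19).

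The type I interferon response was lower as a group, in 38 of 51 tested genes, with 3 higher and a median of -1.56. Slfn1 and Slfn4 of the Schlafen family had the largest falls (log2 -5.93 ± 0.34 and -5.52 ± 0.46). Oasl2, a relative of the RNA-sensing synthetases, stood at 337, 683 and 728 in the monocytes and 0, 21.3 and 77.3 in the macrophages (log2 -4.63 ± 0.36). Irf7, the factor that amplifies the response, stood at 492, 639 and 680.5 and 33.1, 141 and 265 (log2 -2.11 ± 0.25), and Mx1, an antiviral GTPase, was lower (log2 -2.87 ± 0.41). Oasl1, which holds Irf7 translation back, was lower as well (log2 -4.29 ± 0.75). Rsad2 was not called (log2 0.06 ± 0.27), and Ifi44 was the largest rise, with overlap (log2 1.78 ± 0.48). Several of these genes belong to families of close copies, between which reads can be misassigned.

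Antigen presentation differed in its parts, 8 of 21 tested higher and 6 lower (median 0.25). The class II chains H2-Aa and H2-Ab1 were higher by less than 2-fold, the second with overlap, at 1096, 1176 and 1333 and 1240, 1484 and 1799 in the macrophages against 724, 779.7 and 1031 and 907, 962 and 1312 in the monocytes. Of the ligands for T cells, Cd86 was higher (log2 2.11 ± 0.16) and Cd40 lower (log2 -3.33 ± 0.31). Icosl, the ligand of ICOS, was lower with overlap (log2 -2.42 ± 0.62), and Tnfsf9, the ligand of 4-1BB, was 38.4-fold (95% counting interval 10.5 to 319) lower. S100 and secondary granule genes were lower in 9 and higher in 1 of 13 tested (median -1.97), with S100a4 and S100a6, calcium-binding proteins of migrating cells, at log2 -4.42 ± 0.47 and -3.94 ± 0.39, and S100a1 as the higher one (log2 0.91 ± 0.21). Lyz2, lysozyme, was lower (log2 -1.88 ± 0.23), although its reads may be shared with Lyz1. S100a8 and S100a9, which neutrophils and monocytes are known to make in quantity, had 10 and 17 counts in all macrophage libraries and 24 and 4 in all monocyte libraries, too few to test. The annotation and strand use behind the counts are not known, so these values do not show that the cells lack either RNA. The cause of the low counts was not tested. Primary granule genes were lower in 4 of 7, and Prtn3, proteinase 3, had no count in the macrophages against 226 in the monocytes, at least 29.4-fold lower. Flt3, a receptor of progenitors and dendritic cells, and Plac8 were lower (log2 -3.36 ± 0.60 and -2.42 ± 0.35), and Calr, the chaperone calreticulin, was higher (log2 0.74 ± 0.18). In the MS4A family of membrane proteins 8 of 10 were lower and 2 higher (median -2.36), with Ms4a4c at log2 -4.603 ± 0.35 and Ms4a7, a macrophage member, at log2 2.505 ± 0.16. The related Tmem176a and Tmem176b, which the list holds, and Ms4a6b were lower (log2 -4.13 ± 0.41, -2.84 ± 0.27 and -3.46 ± 0.30).

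Genes of cell division differed in few members. Of 29 tested genes of mitosis 6 were higher and 2 lower (median 0.10) beside the background of 20.3% and 24.4%, and 3 in place of 6 were higher without mouse 24415. Mki67, the proliferation marker, stood at 8.72, 64.4 and 94.1 and 29.99, 46.4 and 73.96 and was not called. Smc2, a condensin subunit, and Top2a, the mitotic topoisomerase, were higher (log2 2.04 ± 0.38 and 1.69 ± 0.43), and Racgap1, needed to divide the cell body, was lower (log2 -3.24 ± 0.39). Ncapd2, another condensin subunit, was higher and Aurkb, a mitotic kinase, lower, both with overlap (log2 2.99 ± 0.90 and -2.62 ± 0.63). Of 21 tested replication genes 7 were higher and 2 lower (median 0.65), among the higher ones Mcm2 of the helicase and the DNA ligase Lig1 (log2 2.26 ± 0.50 and 3.38 ± 0.51). The polymerase Pola1 was higher (log2 2.64 ± 0.59), and the ribonucleotide reductase Rrm2 was higher with overlap (log2 2.41 ± 0.66). Slbp, which binds histone RNA, was lower with overlap (log2 -1.21 ± 0.38), a call that is lost without mouse 24214 or 24323 (log2 -1.08 and -1.07). The D cyclins, which start the cycle, lay on opposite sides. Ccnd2 stood at 399, 434 and 564 in the macrophages and 0, 4.85 and 12.7 in the monocytes (log2 6.28 ± 0.39), and Ccnd3 at 8.72, 24.96 and 44.1 and 279, 338 and 376 (log2 -3.83 ± 0.26). Ccnd1 was higher (log2 4.47 ± 0.78). Cdkn1a, the inhibitor p21, was lower (log2 -5.42 ± 0.41), at 140.1, 169 and 204 in the monocytes.

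Of 25 tested genes of glycolysis and glucose uptake 17 were lower and 2 higher (median -0.99). Slc2a6, a glucose transporter, had no count in the macrophages and stood at 118, 129 and 168 in the monocytes, at least 167-fold lower. Slc16a3, the lactate exporter, was at least 30.4-fold lower. Pkm, pyruvate kinase, stood at 412, 436 and 473 in the monocytes and 88.3, 129 and 166 in the macrophages (log2 -1.77 ± 0.17), and G6pdx, the entry to the pentose phosphate path, was lower (log2 -1.66 ± 0.22). Of the hexokinases Hk1 was lower and Hk3 higher (log2 -2.79 ± 0.59 and 1.46 ± 0.23), and Pdk1, which holds pyruvate back from the mitochondria, was higher (log2 2.04 ± 0.39). Ldhb, a lactate dehydrogenase, was lower (log2 -5.29 ± 0.69). Gapdh had 8 and 38 counts in all macrophage and all monocyte libraries. Its many processed copies in the genome may draw its reads, and it was left out.

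Nuclear subunits of oxidative phosphorylation were higher in 36 and lower in 8 of 59 tested, with a median of 0.86. Ndufa5 and Ndufa2 of complex I and Cox5a of complex IV were among the largest rises (log2 1.88 ± 0.24, 1.65 ± 0.24 and 1.51 ± 0.21), while Uqcrc1 of complex III was lower (log2 -1.64 ± 0.21). All 7 tested genes of the mitochondrial genome were higher, from mt-Co1 (log2 1.16 ± 0.18) and mt-Nd5 (log2 1.497 ± 0.17) to mt-Nd4, mt-Nd2 and mt-Nd6 (log2 1.803 ± 0.23, 1.89 ± 0.22 and 2.402 ± 0.26), though copies in the nuclear genome may draw their reads. The list holds 13 such genes, of which 6 were not tested and 5 had no count in any of the 12 libraries. Why these counts are missing was not tested. Nrf2 targets and selenoproteins were higher in 19 and lower in 6 of 34 (median 0.78), among them the metallothionein Mt1, Gclm of glutathione synthesis and the superoxide dismutase Sod1 (log2 3.82 ± 0.28, 2.63 ± 0.31 and 2.58 ± 0.24). Gsr, which reduces glutathione, was lower (log2 -2.16 ± 0.21).

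The median of the oxidative phosphorylation list differed between mice. In mouse 24117, whose 2 libraries had almost the same depth, it was 0.07, against 0.63 to 1.20 in the other 5 mice, whose monocyte library was 2.02 to 13.0 times deeper. In mouse 24323, where the ratio was 13.0, it was 0.76 beside a median of -0.40 over all tested genes. The mitochondrial genes stood at 0.39 in mouse 24117. In the other 5 mice, in order of rising ratio, they stood at 1.52, 1.54, 1.72, 1.79 and 2.02. The Nrf2 targets stood at 0.19 in mouse 24117 against 0.55 to 0.95. The 36 subunits called higher had a median exon length of 1244 bases and the 8 called lower one of 2353, where over all tested genes the higher had 4440 and the lower 3997. Some other lists lay nearer 0 in mouse 24117 as well, and some lay farther from it. The classical monocyte identity stood at -4.28 there against -7.92 to -6.62, complement components at 3.95 against 4.48 to 6.08, glycolysis at -0.79 against -1.42 to -0.99, and the red pulp identity at 4.78 against 4.94 to 5.95. The interferon response, at -1.24 against -1.71 to -1.15, lay within the range of the other mice. Farther from 0 there were the tissue macrophage core, at 1.20 against 0.68 to 1.11, and the eicosanoid genes, at 1.14 against -0.45 to 0.91. The macrophage library of mouse 24117 also held the highest B cell, plasma cell and T and NK cell sums (3102, 1711 and 588.9 CPM). The highest in another macrophage library were 2241, 467.4 and 510.8. Depth and other cells cannot be told apart in this mouse, and their part in these lists was not tested. These per-mouse values rest on 1 pair of libraries each and carry no test.

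**Figure D4:**
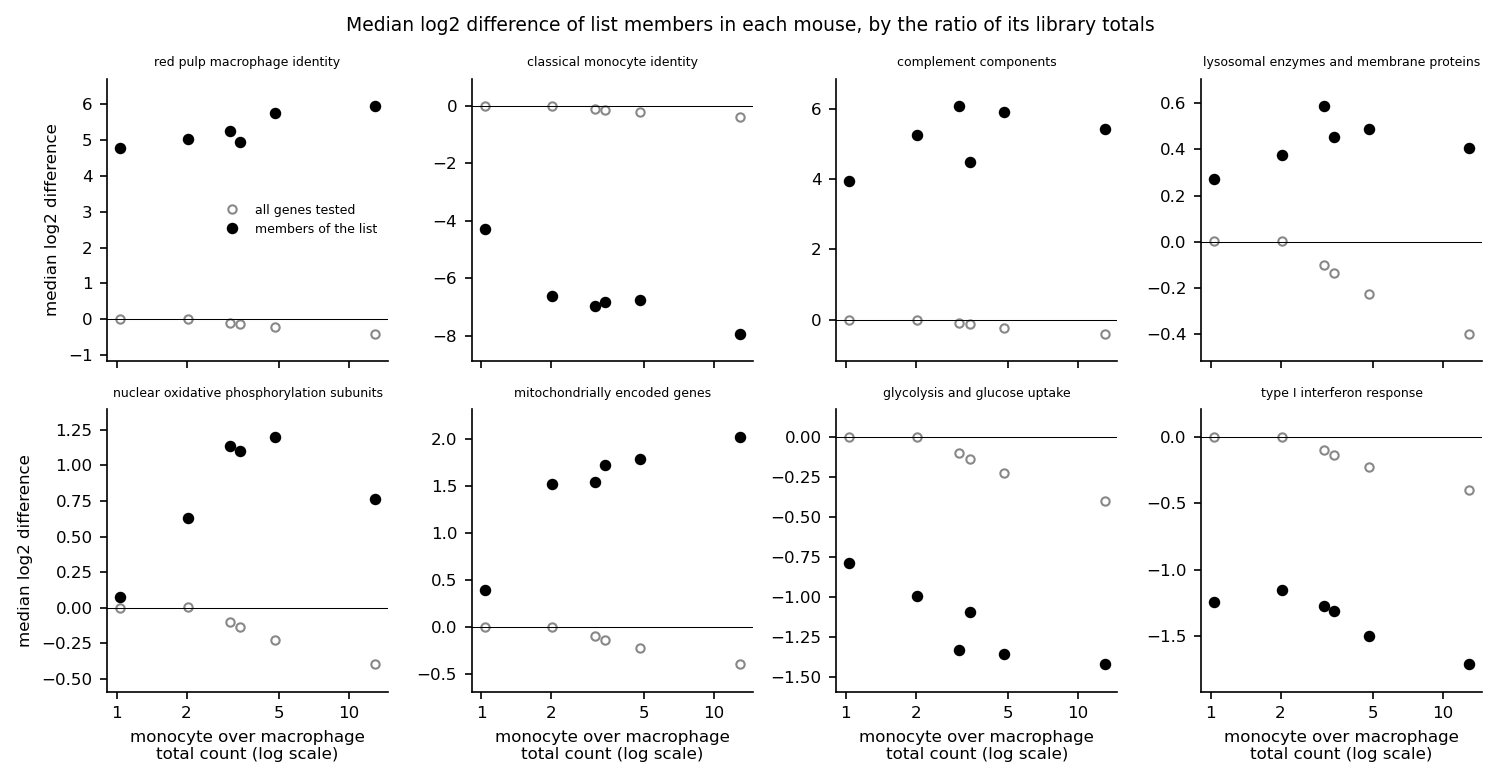
Median log2 difference (macrophages minus monocytes) of 8 gene lists in each of the 6 mice (filled points), against the ratio of the monocyte library's total count to the macrophage library's (log scale), with the median of all tested genes as open circles. In the mouse with a ratio of 1.03 the oxidative phosphorylation median is 0.07, below all 5 others, while the red pulp identity median is 4.78 there and stays far above 0 in every mouse.

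Markers of other cells that either gate could hold were summed per library over whole lists, and none of the 11 sums passed an exact two-sided sign-flip test over the 6 mice after adjustment (6 mice cannot give a p under 0.03125). The 6 sums with the same sign in 6 of 6 mice, those of neutrophils, platelets, basophils, endothelium, dissociation and mitochondria, reached that smallest p, which adjusts to 0.0573. Red cell genes summed to 666, 2203 and 7583 CPM in the macrophage libraries and to 675, 707 and 974 in the monocyte libraries, higher in 5 of 6 mice (mean log2 difference 1.72, adjusted p = 0.0982 by the exact test). Car2, carbonic anhydrase 2, and the beta globin Hbb-bs were called higher gene by gene (log2 7.296 ± 0.53 and 4.59 ± 0.65), as was Hbb-bt (log2 5.25 ± 0.80), with globin copies not separable. Nfe2, a factor of red cell and platelet precursors, was lower (log2 -4.55 ± 0.37). Whether this is RNA of engulfed red cells, of attached ones or of the macrophages was not tested. B cell sums differed little (mean log2 0.29, adjusted p = 0.55), T and NK cell sums by 0.69 (adjusted p = 0.267) and dendritic cell sums by 0.005 (adjusted p = 0.969, all by the exact test). Bank1, a B cell adaptor, was higher on its own, at 331, 470 and 622 against 10.3, 33.3 and 43.6, and Cd37, a tetraspanin, was lower (log2 -2.17 ± 0.42). Cr2 and Ms4a1 of B cells were higher with overlap (log2 2.18 ± 0.60 and 1.77 ± 0.59), and Ms4a1 is not called without mouse 24028, 24117 or 24214 (log2 1.67, 1.24 and 1.55). Cd4, which some macrophages also express, stood at 22.1, 40.3 and 111 in the macrophages and was 141-fold (95% counting interval 47.5 to 692) higher. The other 2 of 3 tested T and NK members were not called, with log2 differences below 0. The T cell genes Cd3g, Cd8a, Cd3d and Cd3e were too low for the test. They had 120, 126, 36 and 28 counts in the macrophages and 8, 13, 8 and 2 in the monocytes. Whether Cd4 RNA came from T cells or macrophages was not tested. Clec9a and Ly6d, both members of the dendritic cell list, were higher with overlap (log2 3.25 ± 0.46 and 1.997 ± 0.44). Of the plasma cell factors Xbp1 was lower (log2 -1.63 ± 0.20), and Prdm1 was higher with overlap, a call that is lost without mouse 24416 (log2 1.29 ± 0.41 and 0.836). Neutrophil genes summed to 44.4, 72.4 and 99.2 CPM in the macrophages and 518, 622 and 703 in the monocytes (mean log2 -3.11), with counts for 6 and 8 of 17 members, and mostly from Mmp8 and Csf3r. Csf3r, the receptor that neutrophils use for G-CSF, was lower (log2 -1.87 ± 0.22), and Vwf, the von Willebrand factor of platelets and endothelium, was higher (log2 4.38 ± 0.76). Platelet genes summed to 364, 496 and 604 in the macrophages and 13.5, 27.0 and 51.9 in the monocytes (mean log2 4.10), mostly from Clec1b, and by 2.96 over the members that no other list holds. Nearly all of the basophil and eosinophil sum in the macrophages was Ccr3, while Ms4a2, Mcpt4, Tpsb2, Gata2 and Epx had 0 counts in them. Of the 16 members of that list 9 had a count in the macrophages and 7 in the monocytes. The endothelial sum (mean log2 5.83) was mainly Stab2, with Tie1, Lyve1 and Plvap at 0 counts. Of its 22 members 12 had a count in the macrophages and 8 in the monocytes. Esam, an adhesion molecule of endothelium, had 116 counts in the macrophages and 0 in the monocytes, at least 99.3-fold higher, and Cdh5, VE-cadherin, 8 and 1. Over the members that no other list holds, the endothelial sum differed by 2.30 (adjusted p = 0.115 by the exact test). The dissociation genes, which rise when tissue is digested, summed lower in the macrophages (mean log2 -0.99, adjusted p = 0.0573 by the exact test), with Fos and Junb lower gene by gene (log2 -1.35 ± 0.16 and -1.95 ± 0.18) and Egr1 higher with overlap (log2 1.76 ± 0.50), though not without mouse 24415 (log2 1.44). Socs3, Ier2 and Atf3 were lower too (log2 -4.34 ± 0.71, -2.79 ± 0.22 and -2.67 ± 0.27). Their part in the differences between the 2 cells was not tested.

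**Figure D5:**
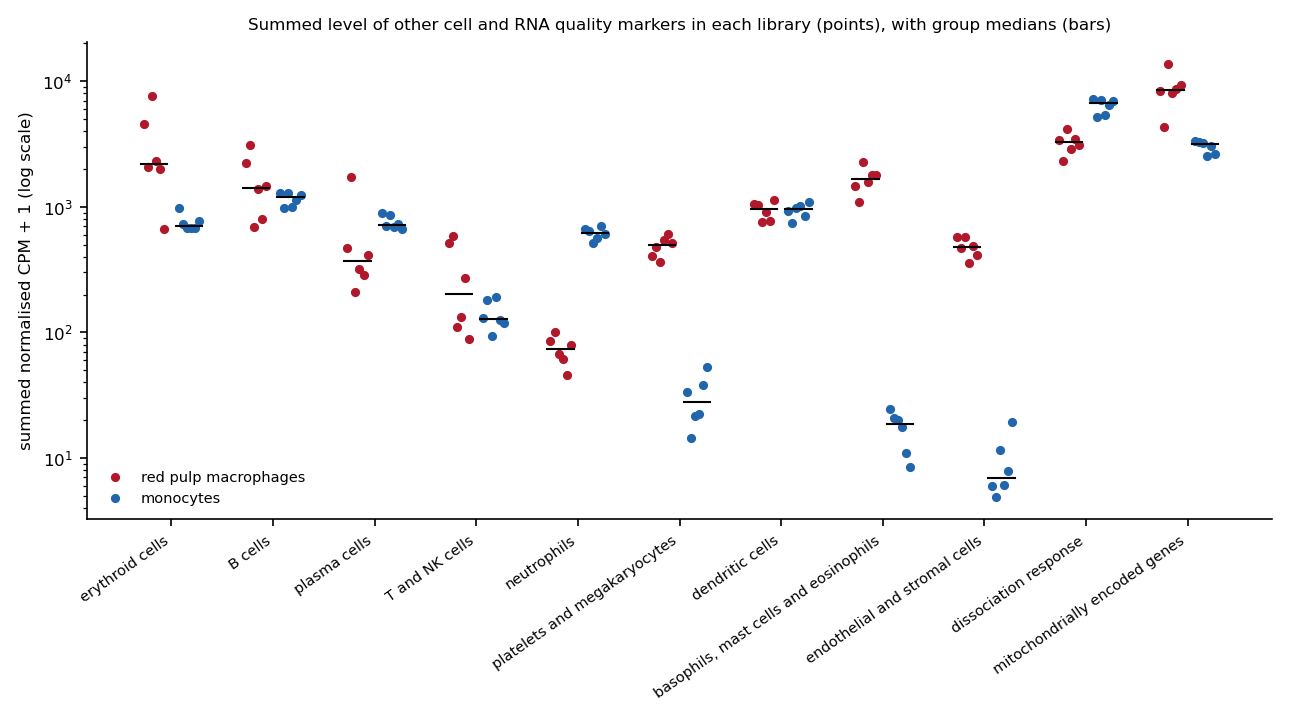
Summed normalised CPM (log scale) of 11 marker lists in each of the 6 macrophage libraries (red) and 6 monocyte libraries (blue). Red cell genes run from 666 to 7583 in the macrophages and from 675 to 974 in the monocytes, and the basophil, endothelial and platelet sums are higher in every macrophage library.

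The same contrast was set against that in the TLR7.1 mice, with 6 macrophage and 6 monocyte libraries from 6 females sorted through the same gates. Of 10748 genes tested for a difference between the genotypes in the macrophage to monocyte contrast, 19 were called (0.177%, edgeR's quasi-likelihood test with mice as blocks), 11 with the larger log2 value in wild type and 8 with the smaller, and 888 had an unadjusted p under 0.05. The count was 46 without mouse 24117, 6 without mouse 24415, 11 without mouse 24323, and 12 without mouse 24214 or TLR7.1 mouse 24261, so the count depends on single animals. Of these 5 genes were named by the smallest p, here with CPM scaled over all 24 libraries. Tgfbi, a matrix protein that TGF-beta induces, stood at 397, 523 and 1177 in wild-type macrophages and at 138, 184 and 227 in TLR7.1 macrophages, with near-equal monocytes (650 to 784 and 632 to 769), so its contrast differed by 1.69 on the log2 scale (SE 0.23, adjusted p = 0.00855). Ctse, cathepsin E, stood at 0, 22.2 and 32.7 in wild-type macrophages and at 90.7, 241 and 608 in TLR7.1 macrophages (difference of contrasts -4.24, SE 0.60, adjusted p = 0.00855). Cd38, an enzyme that consumes NAD, differed in the monocytes, at 6.67 to 22.1 in wild type and 33.1 to 109 in TLR7.1. Gpr141, an orphan receptor, stood at 131, 177 and 251 in wild-type macrophages and at 21.8, 45.2 and 63.1 in TLR7.1 macrophages, and Rsad2, the antiviral enzyme viperin, at 105, 157 and 305 against 396, 539 and 759. For the genes not called, the test does not show that the contrast is the same in both genotypes.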

How the data were processed

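RNA was measured by RNA-seq in sorted spleen cells, and the deposited values are the authors' raw counts of reads per gene, not normalised. Per the submitters' processing notes the tools include CASAVA 1.8.2, FastQC, TopHat, Bowtie, SAMtools, Picard and HTSeq 0.4.1 on build NCBIM37, named there with no role or order. Neither the annotation release nor the use of strand is given in the sources used here, so a gene and its antisense partner cannot be told apart. Of 37991 identifiers 32919 matched a symbol in GENCODE M21, with 99.11% of the counts, and exon lengths come from the same annotation.

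The 12 wild-type libraries were fitted in edgeR 4.0.16 (R 4.3.3; TMM factors, filterByExpr, robust quasi-likelihood test) with mouse and population as terms, and p-values were adjusted by Benjamini-Hochberg over all 9656 tested genes, with 0.05 as the threshold. The mouse number in the titles ties both libraries to 1 animal. The deviations of the pairs from their group means correlated at 0.018 to 0.111. In 6 of 6 mice the macrophage library correlated best with the monocyte library of its own number. The margin was small in mouse 24415 (0.018 against at most 0.015 with another mouse) and in mouse 24214 (0.031 against 0.028). The standard error of a log2 difference is its size divided by the square root of F. The fit was also run on simulated counts with 200 changed genes. These are far fewer than the genes called here, so that run does not show how the fit performs under differences this widespread. Mice are separate animals, and no 2 libraries held identical values. The interval of a count ratio is an exact 95% interval for counting error only, as are the floors of 3 counts.

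The populations, gene lists and tests were chosen with earlier results of these data known. Named are the sort genes, the 15 largest rises and falls (called, no overlap, 20 CPM or more in the higher population, no predicted gene or receptor segment), in each list the 4 largest called changes and the largest against its main direction, the 5 genotype-dependent genes of smallest p, and genes that a list's role needs. The alternatives were RLE factors, DESeq2 1.42.0, limma-voom (3.58.1) with quality weights, other filters, no mouse term, all 30 libraries, thinning, each mouse left out and the mice of 26 December alone. Promoter windows come from RefSeq on GRCm38.p6, and 7293 tested genes had one. Genes without a symbol stayed in the fit and are not named, and a few genes that the rule selects are not reported here.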

Additional observations from a re-analysis of the deposited data

Results flagged for a closer look

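Of 67 groups of 6 libraries tested for a library far from the rest, 3 gave one, and chance gives about 1 in 20. The macrophage library of mouse 24117 held 1511480 counts, far above the other 5. In the same library the plasma cell markers summed to 1711 CPM, far above the other macrophage libraries. Among the monocyte libraries, that of mouse 24028 held 973.9 CPM of red cell genes, apart from the other 5.

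The difference between macrophages and monocytes depended on genotype for 5 named genes, by the test of that difference. The log2 contrast in wild type minus that in TLR7.1 was 1.685 for Tgfbi, -4.242 for Ctse, 2.029 for Gpr141, 2.462 for Cd38 and -2.22 for Rsad2 (edgeR's quasi-likelihood test, adjusted p = 0.00855, 0.00855, 0.01295, 0.01358 and 0.01358).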

How the results depend on the processing

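The alternatives kept most counts of called genes within 1.5 times, and leaving out 1 mouse in turn gave 1630 to 1973 genes higher and 2005 to 2312 lower. Without the replicate block, that is without pairing by mouse, 2271 were higher and 2272 lower. Thinning to 95002 counts a library, which tests fewer reads, gave 794 higher and 812 lower, and 196 and 205 at a fold of 4. At that fold 1087 were higher with no filter on low counts and 1025 in the fit of all 30 libraries without a replicate block. The genes that depend on genotype numbered 44 with no filter, 58 with no replicate block, 142 by DESeq2, and 6 to 46 on leaving out 1 mouse, and the cause was not tested. Of 302 called genes named here 280 kept direction and call in each alternative that could fit them, and none changed sign. Of 1632 counts of list members under the alternatives 1476 stayed within 1.5 times.

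Signs turned only where no call was made. The dendritic cell sum was -0.046 with RLE factors, -0.007 thinned and -0.088 to 0.079 without 1 mouse. With members that no other list holds the neutrophil sum was 0.0 and the basophil sum -1.235. Thinned sums passed the test at 1.775 (red cells), -2.885 (neutrophils), 4.596 (platelets), 8.064 (basophils), 7.37 (endothelium), -0.845 (dissociation) and 1.645 (mitochondria). All had an adjusted p of 0.0491 by the exact test. No sum can have a p under 0.03125, so the adjusted value depends on how many sums reach that floor. When thinned, the red cell sum reached it too, so passing does not show stronger evidence for any one sum. Rsad2 stood at -0.024 without a filter, -0.029 in all 30 libraries without a replicate block, -0.628 on 26 December alone and -0.144 to 0.267 without 1 mouse. Fcgr1 stood at 0.019 without a replicate block, 0.178 thinned, 0.16 on 26 December, 0.018 by limma-voom and -0.119 to 0.019 without 1 mouse. Fcgr3 stood at -0.013 with RLE factors and by DESeq2, -0.045 without a filter, -0.012 in all 30 libraries without and -0.005 with a replicate block, and -0.024 to 0.111 without 1 mouse. Mki67 stood at 0.158 without a replicate block, 0.144 in all 30 libraries, 0.161 by limma-voom and -0.189 to 0.176 without 1 mouse. On 26 December alone Ptprc stood at 0.029, Il1b at 0.33 and Cd47 at 0.084, and Tgfbi at 0.0 thinned. The depth of the macrophage libraries limits low genes, above all in mouse 24323.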
